A study of Mus musculus with 3 samples.

Results

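The nutrient sensing module described here holds 48 genes of the PI3K, AKT, mTOR and AMPK pathway, chosen by name, out of 50600 genes in the tables of a mouse T cell RNA-seq series. All 48 were found in the tables. They were divided into 24 activators, 21 brakes and the 3 genes of the folliculin complex, which act on either side. The series has a single group of 3 libraries, numbered 2, 3 and 4 as biological replicates, made from primary T cells of C57BL/6NJ mice, for which sex was not collected and age is unknown. The labels name a protocol for differentiating CD4+ T cells, and the deposited alignments carry the words Th0, activated and 0 h, but no group with another treatment or time was analysed here. All 3 libraries carry 1 donor identifier, so the number of animals cannot be read from the labels, and p-values cover no more than how far these libraries lie apart, which could in part be technical. The questions open to the data were therefore how high each part of the pathway stood, which paralogue of each family supplied the transcripts, how activators compared with brakes, and whether any member differed among the libraries.

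In T cells, PI3K is recruited to the antigen and costimulatory receptors and makes a membrane lipid that draws in PDK1 and AKT. AKT relieves the inhibition that the TSC complex exerts on RHEB, the small GTPase that switches on the kinase complex mTORC1 at the lysosome, and RAG GTPases bring mTORC1 there when amino acids are present. Brakes act at each step: lipid phosphatases and PIK3IP1 on PI3K, TSC on RHEB, GATOR1 and the sestrins on the RAGs, and AMPK, the sensor of low energy, on mTORC1. Resting T cells are known to hold the pathway low and to engage it on activation. The control lies largely in phosphorylation and in where proteins sit in the cell, which transcript levels do not measure.

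Levels are given as TPM, counts corrected for exon length and scaled to a fixed total, as values in replicates 2, 3 and 4 in that order or as mean ± SD over the 3 libraries. The libraries held between 28340521 and 59698913 gene counts, and intervals cover counting error only. Against the T cell label, 7 of 7 T cell markers passed 1 TPM in every library, with summed levels between 8774 and 9001 TPM. Their means were 3374 TPM for Trac, 1715 TPM for Lck, 1049 TPM for Cd5 and 1044 TPM for Cd4. Those of Cd3d, Cd3e and Cd3g were 776, 519 and 420 TPM. Of the B cell markers 5 of 5 also passed 1 TPM in every library, Cd74 at 117 ± 22.6 TPM, Cd79b at 14.6 ± 2.90 TPM, Cd79a at 14.8 ± 2.31 TPM, Ms4a1 at 2.03 ± 0.394 TPM and Pax5 at 1.56 ± 0.492 TPM, and their sum was 153, 176 and 119 TPM in replicates 2, 3 and 4. Among the other marker lists, Klrd1 at 29.4 ± 0.900 TPM and Cd8b1 at 33.6 ± 3.00 TPM passed of 5 NK and CD8 genes, Cd68 at 13.3 ± 0.314 TPM and Lyz2 at 1.75 ± 0.418 TPM of 6 myeloid genes, and none of 5 erythroid and platelet genes. Replicate 2 stood apart from the others in the sex-linked genes, with Xist at 151 TPM against 0.221 and 0.399 TPM in replicates 3 and 4, and Ddx3y at 0.248 TPM against 80.0 and 72.3 TPM. By these levels replicate 2 came from female material and replicates 3 and 4 from male material, so replicate 2 does not share an animal with the others. Whether replicates 3 and 4 share one is not settled by these genes. In these bulk samples fewer cells of a type and less RNA per cell cannot be told apart.

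Most of the 48 members were transcribed, and their median lay above that of detected protein-coding genes. A list of 48 other genes of the pathway, described at the end, was also largely present but did not share the higher median. Its median was 19.3 TPM, and 18 of 48 lay above the same mark. At 1 TPM or more in every library stood 45 of the 48 members, where 46.1% of protein-coding genes and 23.4% of all genes passed that level. The median member was at 61.0 TPM, against 33.4 TPM for the 10030 protein-coding genes that passed, and 31 of 48 members lay above that median. Levels reached from 0 for Prkaa2 to 785 ± 26.2 TPM for Pik3cd. A mean of 100 TPM or more was found for 12 members and a mean from 10 to 100 TPM for 28. A further 5 lay between 1 and 10 TPM, and Deptor, Fnip2 and Prkaa2 lay below 1 TPM. Of the 46 pairs of neighbours in the order of mean levels, 31 had overlapping ranges over the libraries, so the rank of a member is resolved only to its vicinity.

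**Figure D1:**
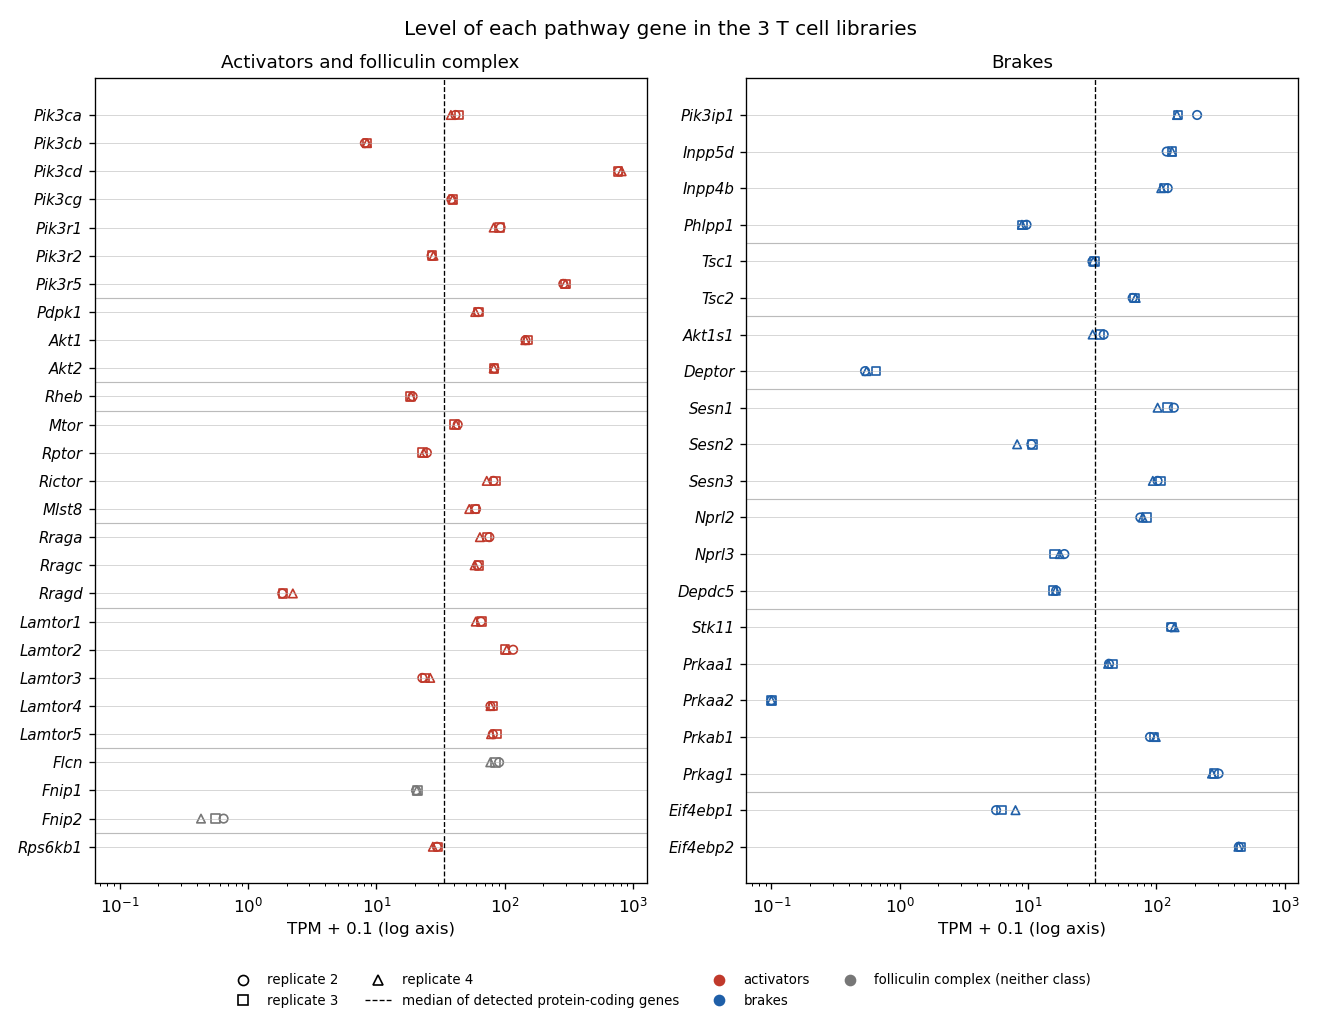
Level of each of the 48 genes in replicates 2, 3 and 4 as TPM + 0.1 on a log axis, by role, with activators and the folliculin complex in the left panel and brakes in the right. The dashed line is the median of 10030 detected protein-coding genes, 33.4 TPM; Pik3cd and Eif4ebp2 lie farthest to the right, and Deptor, Fnip2 and Prkaa2 lie below 1 TPM.

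Among the PI3K subunits, the catalytic gene Pik3cd was far above its paralogues. Pik3cd, which encodes p110δ, the leukocyte isoform that acts downstream of antigen receptors (ENSMUSG00000039936.18, chr4:149649168-149702571, minus strand, in mm10 as all coordinates here), stood at 773, 766 and 815 TPM. It was the highest of the 48 members in each library, at percentile 98.7 of the detected protein-coding genes. The broadly expressed Pik3ca, which encodes p110α, stood at 41.2, 44.0 and 38.0 TPM. Pik3cg, encoding the p110γ isoform coupled to G protein receptors, was at 38.3, 39.4 and 39.1 TPM, so that it and Pik3ca overlapped. Lowest was Pik3cb, for p110β, at 8.03, 8.37 and 8.33 TPM. The range of Pik3cd was separate from that of each paralogue, and Pik3cd made up 89.9 ± 0.604% of the summed TPM of the 4 catalytic genes (SD, n = 3). Its excess over Pik3ca was 4.25 ± 0.15 on the log2(TPM + 0.1) scale, with a ratio of pooled counts per base of 18.6 (95% interval 18.3 to 19.0).

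Contrasts between genes were tested by exact permutation, turning the signs of the 3 library differences round in every combination (two-sided), a design that cannot give a p below 0.25. Each contrast is a difference of log2(TPM + 0.1), the first gene minus the second, as mean ± SD over the 3 libraries. In 27 of 28 contrasts all 3 libraries shared a sign, with an exact permutation p = 0.25 for each and an adjusted p of 0.259 by the Benjamini-Hochberg method, so none could pass 0.05. The intervals of pooled ratios cover counting error only. These statements hold for each contrast given here except Inpp5d over Inpp4b.

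Regulatory and catalytic subunits that bind each other stood at different levels. Pik3r5, which encodes p101, the partner of p110γ (ENSMUSG00000020901.13, chr11:68432121-68497849, plus strand), was the third highest member by mean, at 286, 298 and 296 TPM. Its range overlapped that of Prkag1, which was higher in replicate 2. Pik3r5 exceeded Pik3cg by 7.53 ± 0.0609-fold (mean ± SD of the ratio, n = 3). Pik3r1, the gene of p85α, which stabilises p110δ and recruits it to phosphorylated receptors, was at 92.7, 91.0 and 81.9 TPM. Pik3cd exceeded Pik3r1 by 8.90 ± 0.905-fold. The paralogue Pik3r2, encoding p85β, was lower than Pik3r1 in each library, at 26.8, 26.9 and 27.8 TPM, a difference of 1.70 ± 0.12 for Pik3r1 over Pik3r2. Together with Pik3r3, the gene of p55γ at 2.82 ± 0.0263 TPM, these p85-type genes were divided into 74.7 ± 1.61% for Pik3r1, 23.0 ± 1.49% for Pik3r2 and 2.38 ± 0.125% for Pik3r3.

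The brakes closest to PI3K were also well expressed, with 1 exception. Pik3ip1 encodes a transmembrane protein that restrains p110 (ENSMUSG00000034614.14, chr11:3330401-3342971, plus strand), and it stood at 207, 148 and 145 TPM, higher in replicate 2 than in the others. Inpp5d, the gene of SHIP1, which removes the 5-phosphate of the PI3K product in blood cells, was at 120.2, 132 and 132 TPM. Inpp4b, whose product acts on the next lipid in that series, was at 122, 115 and 109 TPM, and the ranges of Inpp5d and Inpp4b overlapped. Their difference, 0.15 ± 0.16 for Inpp5d over Inpp4b, had the same sign in 2 of 3 libraries (exact two-sided permutation p = 0.5, adjusted p = 0.5). Without correction for exon length it was -0.63. Phlpp1, encoding a phosphatase that dephosphorylates AKT, was the exception at 9.63, 8.99 and 8.86 TPM. Pik3cd exceeded Pik3ip1 by 2.26 ± 0.32 and Inpp5d by 2.61 ± 0.07 on the log2 scale.

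PDK1 and AKT genes lay between 61.2 and 147 TPM and differed little among the libraries. Pdpk1, the gene of the kinase PDK1 that phosphorylates the activation loop of AKT, was at 62.3, 62.5 and 58.8 TPM. Akt1, the widespread isoform (ENSMUSG00000001729.14, chr12:112653821-112674884, minus strand), was at 145, 151 and 145 TPM. Akt2, best known for its part in insulin responses, was at 83.0, 82.5 and 82.0 TPM, with the lowest coefficient of variation of all members, 0.586%. The ranges did not overlap, and Akt1 exceeded Akt2 by 0.83 ± 0.04, a pooled ratio of 1.79 (95% interval 1.76 to 1.82). The difference was 0.03 without correction for exon length. A pseudogene named Akt2-ps is annotated, so the count of Akt2 is uncertain where reads match both. Akt1 exceeded the phosphatase gene Phlpp1 by 3.99 ± 0.08.

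Among the members at the RHEB and TSC step, the activator was lower than both brakes in each library. Of the genes that are not members, the paralogue Rhebl1 was at 15.9 ± 1.84 TPM. Tbc1d7, also of the TSC complex, was at 5.68 ± 0.696 TPM, below Rheb. Rheb stood at 19.1, 18.2 and 18.5 TPM, below the 33.4 TPM median of detected protein-coding genes. Tsc2, which encodes tuberin, the part of the complex that switches off RHEB (ENSMUSG00000002496.9, chr17:24595937-24632629, minus strand), was at 65.2, 67.6 and 68.9 TPM. Tsc1, for hamartin, which stabilises tuberin, was at 31.6, 32.9 and 32.1 TPM. The ranges of Rheb, Tsc1 and Tsc2 were separate, and the ratio of Tsc2 to Tsc1 was 2.09 ± 0.0510. Tsc1 over Tsc2 was -1.06 ± 0.03, and -0.09 without correction for exon length. Rheb over Tsc2 was -1.85 ± 0.07, a pooled ratio of 0.277 (95% interval 0.269 to 0.286), and it was negative in 3 of 3 libraries.

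The core of the mTOR complexes was present at moderate levels, with the subunit that defines mTORC2 above the one that defines mTORC1. Mtor, the gene of the kinase itself (ENSMUSG00000028991.15, chr4:148448611-148557683, plus strand), was at 42.9, 40.4 and 41.7 TPM. Rptor, for the mTORC1 scaffold RAPTOR that binds substrates, was at 24.6, 22.9 and 23.3 TPM. Rictor, for the corresponding subunit of mTORC2, the complex that phosphorylates AKT, was at 81.5, 84.8 and 72.3 TPM, and Rptor over Rictor was -1.75 ± 0.13. Mlst8, a subunit of both complexes, was at 59.7, 58.7 and 52.8 TPM. The members of the mTORC1 core thus spanned a 2.42 ± 0.150-fold ratio between Mlst8 and Rptor. That order depends on the correction for exon length, with 3366 merged exon bases for Mlst8 and 13471 for Rptor. By pooled counts Mlst8 was the lowest of the 3 at 7355, against 12001 for Rptor and 15867 for Mtor.

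Of the inhibitory subunits of mTOR, Akt1s1 was transcribed and Deptor was close to absent. Akt1s1 encodes PRAS40, an mTORC1 inhibitor that AKT phosphorylates, and was at 38.8, 36.4 and 31.8 TPM. Deptor, which binds and inhibits mTOR in both complexes, had 51, 82 and 32 counts, or 0.436, 0.555 and 0.452 TPM, above the 0.00895 TPM that 3 counts over the 3 libraries would give. Akt1s1 over Deptor was 5.94 ± 0.21 and Mtor over Deptor 6.17 ± 0.20, a pooled ratio of 84.4 (95% interval 72.4 to 99.0). Rptor over Akt1s1 was -0.59 ± 0.12, but 1.54 without correction for exon length, since the merged exons of Rptor cover 13471 bases and those of Akt1s1 3072. A miRNA gene, Mir707, overlaps 2.38% of the exon bases of Akt1s1 on the same strand.

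Amino acid sensing brakes were uneven. Sesn1, encoding sestrin 1, a target of p53 and FOXO factors (ENSMUSG00000038332.13, chr10:41809935-41908424, plus strand), was at 137, 121 and 102 TPM, highest in replicate 2 and lowest in replicate 4. Sesn3, another FOXO target, was at 102, 107 and 93.7 TPM. The leucine sensor gene Sesn2, which stress responses induce, was lower, at 10.5, 10.8 and 8.12 TPM, and its range was separate from both. Sesn1 and Sesn3 together held nearly all sestrin transcripts per length, 51.9 ± 2.60% and 43.9 ± 2.63%, against 4.23 ± 0.256% for Sesn2. The ranges of Sesn3 and Sesn1 overlapped. Sesn3 over Sesn1 was -0.24 ± 0.16 and turned to 1.70 without correction for exon length, as the merged exons of Sesn3 cover 15269 bases and those of Sesn1 3982. Sesn1 over Sesn2 was 3.60 ± 0.11.

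GATOR1, the complex that turns off RAGA and RAGB when amino acids are short, had unequal subunit transcripts. Nprl2 was at 74.9, 83.3 and 78.1 TPM, well above Nprl3 at 19.1, 15.95 and 17.6 TPM and Depdc5 at 16.4, 15.5 and 16.3 TPM. Nprl3 and Depdc5 overlapped. Nprl2 over Nprl3 was 2.16 ± 0.21 and Nprl2 over Depdc5 2.28 ± 0.12, and without correction for exon length the difference was 0.26 from Nprl3 and -0.26 from Depdc5, since Depdc5 has 11774 exon bases and Nprl2 2013. DEPDC5 carries the sites that bind the RAGs and NPRL2 the catalytic residue.

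The RAG GTPases were supplied by Rraga and Rragc. Rraga, whose product pairs with RAGC or RAGD, was at 75.8, 72.4 and 64.0 TPM and Rragc at 61.3, 62.9 and 58.2 TPM, with separate ranges, and Rraga over Rragc was 0.21 ± 0.09. That difference was -0.83 without correction for exon length. Rragd, a transcriptional target of TFEB in other cells, was at 1.75, 1.77 and 2.13 TPM. It made up 3.01 ± 0.453% of the RAGC and RAGD pair, against 97.0 ± 0.453% for Rragc. Rragb, not a member, made up 11.8 ± 0.986% of the RAGA and RAGB pair. Rraga over Depdc5, an activator over its brake, was 2.13 ± 0.14 and -0.73 without correction for exon length.

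Ragulator, the pentamer that anchors the RAGs to the lysosome, had its 5 genes between 24.2 and 107 TPM. Lamtor2 was the highest, at 116, 100.5 and 104 TPM, and Lamtor3 the lowest, at 22.7, 23.7 and 26.2 TPM, with a ratio of 4.44 ± 0.607. That order depends on the correction for exon length. By pooled counts Lamtor1 was the highest at 7794 and Lamtor5 the lowest at 2769, against 4907 for Lamtor2 and 3748 for Lamtor3. Lamtor1, whose lipid-modified product wraps the others and tethers them to the membrane, was at 63.4 ± 3.49 TPM, Lamtor4 at 78.4 ± 1.95 TPM and Lamtor5 at 81.9 ± 4.45 TPM. Apart from Lamtor3 every Ragulator gene lay above the 33.4 TPM median.

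Folliculin complex genes were unequal too. Flcn encodes folliculin, a GTPase activating protein for RAGC and RAGD that promotes mTORC1 signalling to some substrates, and was at 90.3, 84.6 and 77.1 TPM. Its partner gene Fnip1, whose product also binds AMPK, was at 20.3, 20.9 and 20.6 TPM. Fnip2 had 60, 64 and 22 counts, or 0.545, 0.460 and 0.330 TPM, and Fnip1 made up 97.9 ± 0.521% of the pair.

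Promoters of the members were searched for 3 motifs of factors known to act on this pathway. RefSeq promoter windows of GRCm38.p6, from 250 bases before to 50 bases after an annotated start, were matched by symbol for 45 of 48 members, in 55 windows, and not for Deptor, Lamtor3 and Eif4ebp1. The E-box CACGTG, which is its own reverse complement and the core of the site that TFEB and MYC can bind, was found in 5 of 45 members, namely Fnip1, Lamtor1, Lamtor4, Rheb and Rragc. It was present in 8.09% of 27025 genes with a window and in 11.1% of the members, so the members' share is close to that of all genes. The sequences are shown because the 5 genes belong to the RAG, Ragulator, folliculin and RHEB steps, and that of Rheb is left out because it overlaps the gene as the deposited table annotates it. Capitals mark the E-box, each sequence runs 5′ to 3′ on the strand of its gene, and all lie before the start site.
Rragc, chr4:123917294-123917353, plus strand: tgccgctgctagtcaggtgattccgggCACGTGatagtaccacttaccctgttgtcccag
Lamtor1, chr7:101905742-101905801, plus strand: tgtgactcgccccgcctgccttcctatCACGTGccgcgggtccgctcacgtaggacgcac
Lamtor4, chr5:138255335-138255394, plus strand: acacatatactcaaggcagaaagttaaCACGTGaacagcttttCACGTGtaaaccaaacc
Fnip1, chr11:54438077-54438136, plus strand: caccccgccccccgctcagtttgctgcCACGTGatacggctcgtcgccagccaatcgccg
The window of Lamtor4 holds 2 E-boxes, the first 120 bases before its start, while that of Lamtor1 begins 68 bases, that of Fnip1 75 bases and that of Rragc 112 bases before the start.

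The forkhead motif GTAAACA, searched on both strands, was in 4 of 45 members, Akt1, Pik3cg, Sesn1 and Stk11, or 8.89%, against 4.05% of all genes. With bases before the start alone it was in 2 of 45, Akt1 and Pik3cg, or 4.44% against 3.54%. The ATF4 motif TGATGNAA, where N is any base, was in 3 of 45, Akt2, Lamtor4 and Pik3cd, or 6.67% against 4.51%. A match describes these letters and is not a binding site, and a window without a match says nothing of the factor.

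A single gene supplied most transcripts of each AMPK subunit, and LKB1 was well expressed. Stk11, which encodes LKB1, the kinase that activates AMPK (ENSMUSG00000003068.16, chr10:80115803-80130682, plus strand), was at 130.3, 131 and 138 TPM. Prkaa1, for the catalytic subunit α1 (ENSMUSG00000050697.8, chr15:5143861-5181899, plus strand), was at 42.6, 45.5 and 42.0 TPM. Prkaa2, for α2, the form of muscle and liver, had 0 counts in each library, and 3 pooled counts would be 0.00996 TPM. Per base of exon, Prkaa1 was 4392-fold above Prkaa2 if Prkaa2 is set to a floor of 3 counts over the 3 libraries. The exact 95% interval of the pooled ratio, which covers counting error in both genes, has a lower limit of 3571. Prkab1, for the β1 subunit that carries the glycogen binding module, was at 89.0, 95.7 and 98.8 TPM. Prkag1, for the nucleotide binding γ1 subunit, was at 305, 281 and 271 TPM, at percentile 94.98 of the detected protein-coding genes. Against the other genes of each subunit, Prkab1 made up 91.4 ± 0.162% of the β pair and Prkag1 93.4 ± 0.789% of the γ genes, where Prkag2 took 6.61 ± 0.789% and Prkag3 had 0 counts. Among Prkaa1, Prkab1 and Prkag1 the levels were unequal, with a ratio of 6.60 ± 0.502 between Prkag1 and Prkaa1.

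Downstream of mTORC1, the brake Eif4ebp2 was the second highest member. Eif4ebp2 and Eif4ebp1 encode 4E-BP proteins, which hold the cap-binding factor eIF4E until mTORC1 phosphorylates them. Eif4ebp1 was at 5.53, 6.10 and 7.88 TPM and Eif4ebp2 (ENSMUSG00000020091.15, chr10:61428491-61452661, minus strand) at 439, 457 and 436 TPM. Eif4ebp1 over Eif4ebp2 was -6.09 ± 0.28, a pooled ratio of 0.0141 (95% interval 0.0129 to 0.0153). Eif4ebp2 made up 98.1 ± 0.283% of the family, and the third paralogue, Eif4ebp3, was at 1.99 ± 0.611 TPM. Rps6kb1, which encodes S6 kinase 1, the other main substrate, was at 29.5, 30.0 and 27.4 TPM. Rps6kb1 over Eif4ebp1 was 2.15 ± 0.32. In the S6 kinase pair Rps6kb1 made up 29.8 ± 1.31%, against 70.2 ± 1.31% for Rps6kb2, which is not a member. Counts went the other way, 3366, 4322 and 1894 for Rps6kb1 and 2159, 2766 and 1354 for Rps6kb2 in replicates 2, 3 and 4. Their merged exons cover 8658 and 2445 bases, so this order depends on the correction for exon length.

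**Figure D2:**
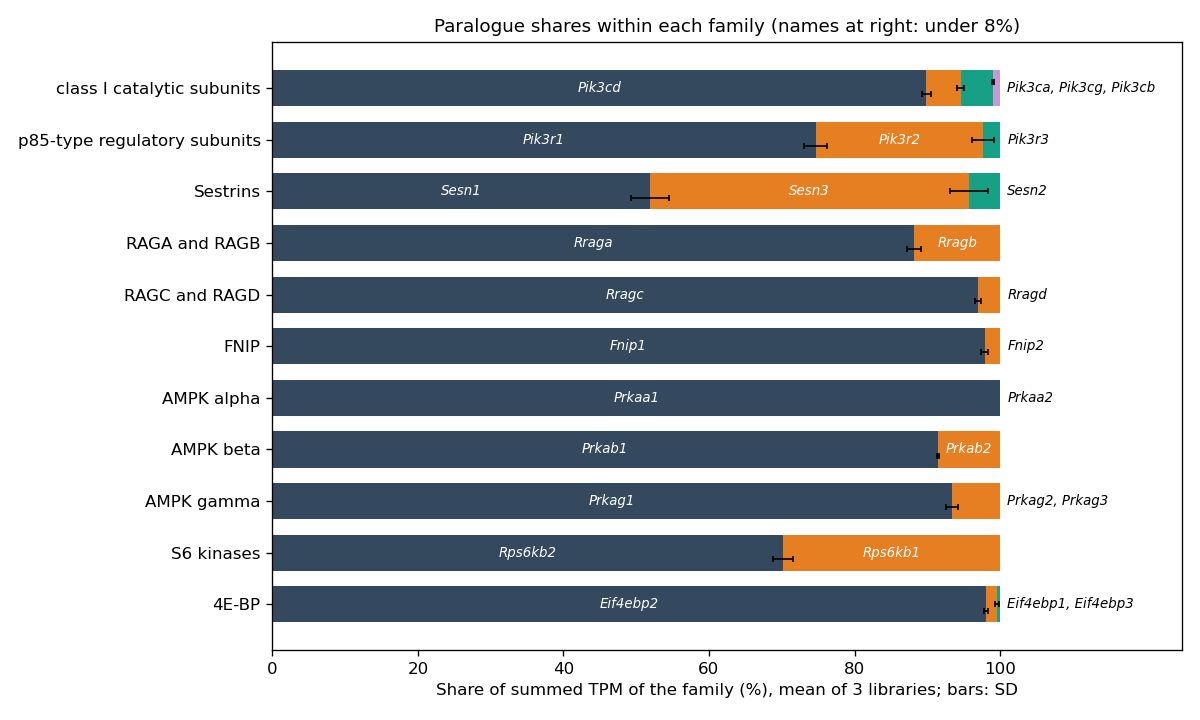
Share of each paralogue in the summed TPM of its family, in percent, as the mean of 3 libraries with SD bars, members and other pathway genes together. A single gene fills nearly the whole bar in the catalytic PI3K, RAG, FNIP, AMPK and 4E-BP families. Smaller leading shares are 74.7% for Pik3r1, 70.2% for Rps6kb2 and 51.9% for Sesn1, in the p85, S6 kinase and sestrin families. The shares are corrected for exon length, while by counts Rps6kb1 exceeds Rps6kb2 and Sesn3 exceeds Sesn1.

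Set against each other, activators and brakes had similar medians and the brakes were more spread. The 24 activators had a median of 61.0 TPM with quartiles at 28.5 and 82.1 TPM, and the 21 brakes a median of 67.2 TPM with quartiles at 16.1 and 120.1 TPM. Above the 33.4 TPM median of detected protein-coding genes lay 17 of 24 activators and 13 of 21 brakes. At 100 TPM or more were 4 activators, Pik3cd, Pik3r5, Akt1 and Lamtor2, and 8 brakes, Eif4ebp2, Prkag1, Pik3ip1, Stk11, Inpp5d, Sesn1, Inpp4b and Sesn3. Under 10 TPM were 2 activators, Pik3cb and Rragd, and 5 brakes, Sesn2, Phlpp1, Eif4ebp1, Deptor and Prkaa2. Summed levels were 2310.4 ± 12.2 TPM for activators and 1905 ± 65.1 TPM for brakes (SD, n = 3). Pik3cd alone supplied 785 TPM of the first sum, and Eif4ebp2 and Prkag1 supplied 444 and 286 TPM of the second.

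The difference of medians, activators minus brakes, was -0.08, -0.11 and -0.24 on the log2(TPM + 0.1) scale in replicates 2, 3 and 4, with a mean of -0.14 ± 0.08. Its sign depended on the summary. It was 0.61 with means of log2 values in place of medians and 0.18 with the folliculin complex counted as brakes. It was 0.32 with the AMPK, LKB1, 4E-BP and S6 kinase genes left out, a setting chosen after seeing the data. No test was made over the lists, because the members were chosen with results known. In pairs of an activator over a brake of the same step, 6 of 8 differences were positive, the exceptions being Rheb over Tsc2 and Rptor over Akt1s1. The tally depends on the brake chosen for each pair, and the pairs were chosen with results known. Rps6kb1, at a mean of 29.0 TPM, was paired with Eif4ebp1 at 6.50 TPM and lay below the other 4E-BP member, Eif4ebp2, at 444 TPM. Rraga, at 70.7 TPM, was paired with Depdc5 at 16.1 TPM and lay below Nprl2 at 78.8 TPM. Pik3cd enters 2 of the 8 pairs.

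**Figure D3:**
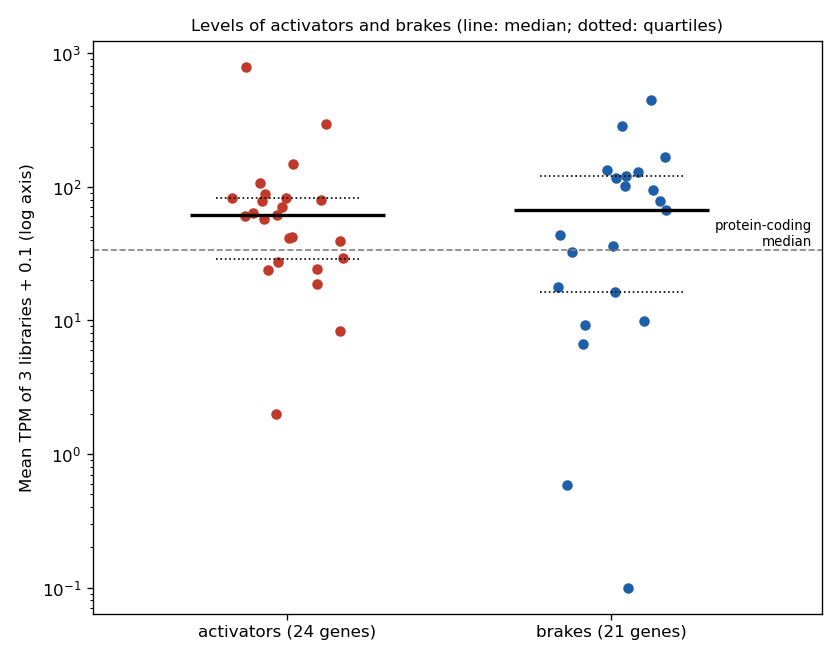
Mean TPM of 3 libraries plus 0.1 on a log axis for each of 24 activators and 21 brakes, with the median as a line, quartiles dotted and the protein-coding median dashed. Medians are 61.0 TPM for activators and 67.2 TPM for brakes, and the brakes reach both nearer to 0 and more often above 100 TPM.

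**Figure D4:**
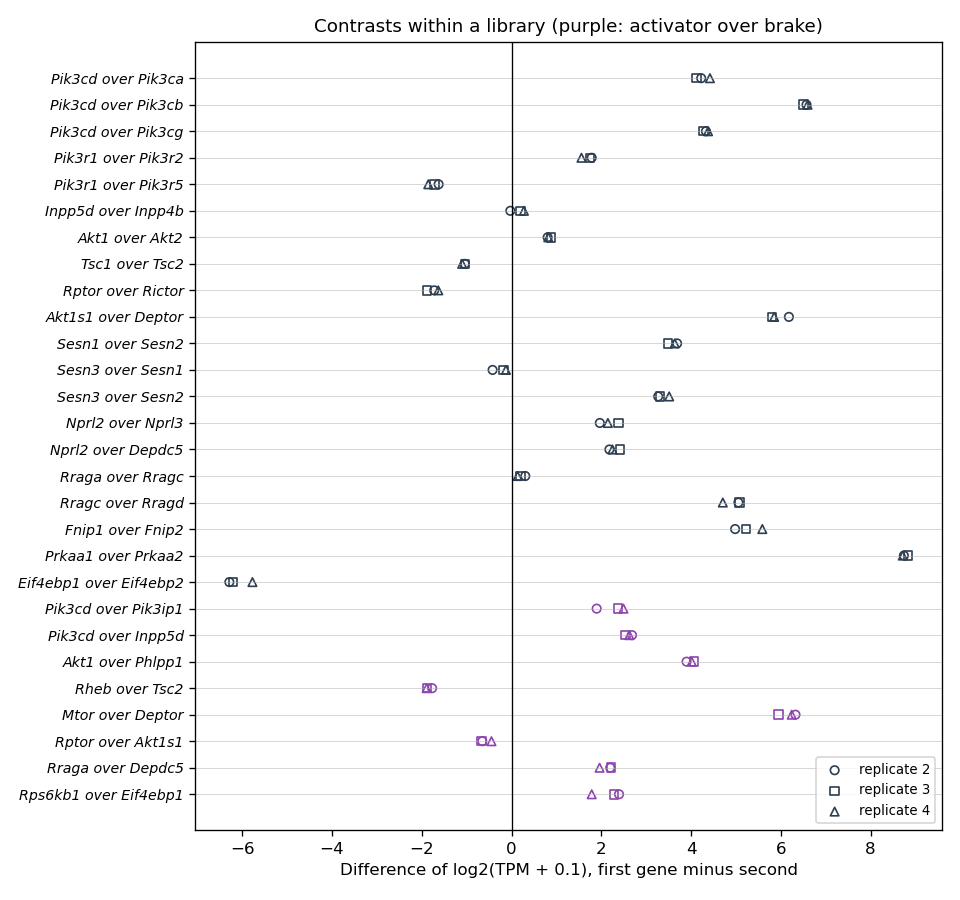
Difference of log2(TPM + 0.1) between the first and second gene of 28 contrasts in replicates 2, 3 and 4, with activator over brake pairs in purple. All contrasts but Inpp5d over Inpp4b lie on 1 side of 0 in each library.

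No member was called variable among the libraries beyond genes of similar abundance. The dispersion trend was estimated from these same 3 libraries, so variation shared by most genes is absorbed in it and is not called. Variation was tested with edgeR's goodness of fit across the 13498 genes that averaged at least 10 counts, of which 72, or 0.533%, were called at an adjusted p of 0.05. Of the 47 members with enough counts, 0 were called. At an unadjusted p of 0.05 it was 1 of 47 members, Pik3ip1, against 4.1% of all genes tested. The count of members called was also 0 under each other setting, where the share of all genes called was 0.533% with RLE size factors, 0.504% with library totals alone, 0.509% with a minimum mean count of 50, 0.322% with a minimum of 1 and 2.31% with a common dispersion. It was 0.26% without replicate 2, 0.294% without replicate 3 and 0.333% without replicate 4. At an unadjusted p of 0.05, Sesn1 joined Pik3ip1 with library totals alone, with a minimum mean count of 50 and without replicate 3, and no member passed without replicate 2. The median range among libraries was 0.125 on the log2 CPM scale for the members, 0.143 for detected protein-coding genes and 0.188 for all genes tested. The coefficient of variation was under 5% for 22 members and 10% or more for 7, of which 5 passed 1 TPM in every library, Pik3ip1, Sesn1, Sesn2, Eif4ebp1 and Rragd.

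Pik3ip1 had the smallest p of the members. Its 207 TPM in replicate 2 stood above 148 and 145 TPM in replicates 3 and 4, a log2 range of 0.471 (edgeR goodness of fit, adjusted p = 0.292 over all genes tested). The adjusted p was 1.000 without replicate 2, 0.405 without replicate 3 and 0.182 without replicate 4. Sesn1, at 137, 121 and 102 TPM, had an adjusted p of 1.000 by the same edgeR test. Replicate 2 is the library that stood apart in Xist, and replicate 4 had the lowest sum of B cell markers. Their part in these values was not tested. Replicate 4 was the lowest library for 24 of the 47 members and replicate 3 the highest for 20. The same shares were not counted over all genes, so these counts cannot be called a trait of the members. The library farthest from the mean of the gene was replicate 2, 3 and 4 for 17, 11 and 19 members. Over all genes tested the shares were 33.7, 28.6 and 37.8%. The median of detected protein-coding genes was 34.0, 33.5 and 32.4 TPM in replicates 2, 3 and 4, also lowest in replicate 4.

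**Figure D5:**
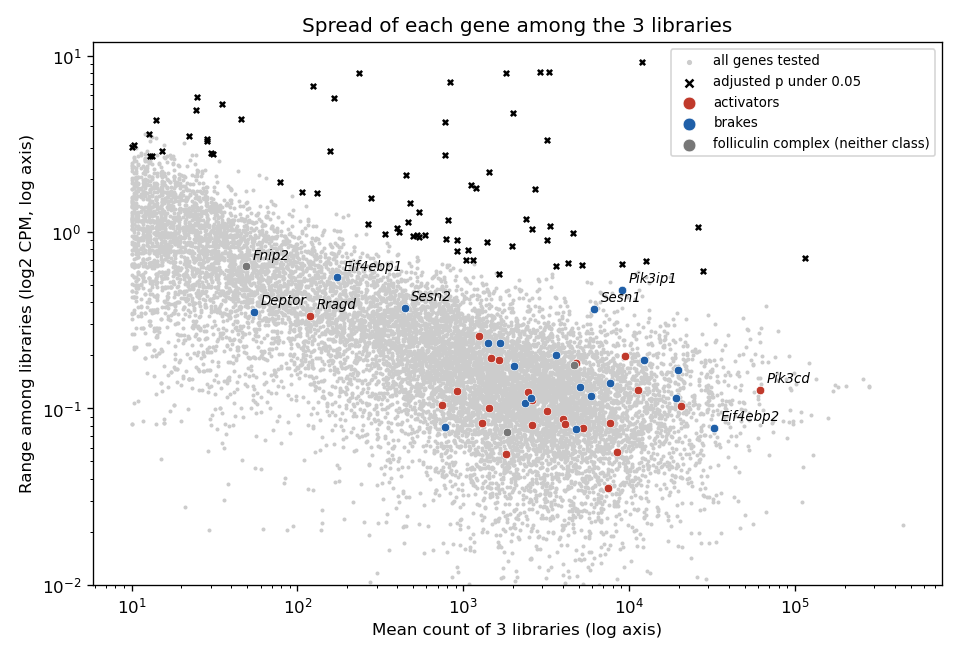
Range of each gene among the 3 libraries, in log2 CPM on a log axis, against its mean count on a log axis, for 13498 genes tested in grey, the 72 called genes as crosses, and activators, brakes and the folliculin complex in color. The members lie within the grey cloud, with Pik3ip1, at a range of 0.471, near its upper edge for that count.

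The wider pathway, a list of 48 genes that are not members, was also largely present. At 1 TPM or more in every library were 43 of 48, with a median of 19.3 TPM, against 61.0 TPM for the 48 members and 33.4 TPM for detected protein-coding genes. The highest were Rps6, encoding the ribosomal protein that S6 kinase phosphorylates, at 1129 ± 72.0 TPM, and Ddit4, encoding REDD1, which activates the TSC complex under stress and glucocorticoids, at 856 ± 47.0 TPM. Next came Eif4b, a translation factor that S6 kinase targets, at 525 ± 15.5 TPM, Cab39, a partner of LKB1, at 121 ± 6.40 TPM, and Sec13, of the GATOR2 complex that opposes GATOR1, at 91.8 ± 2.15 TPM. Ddit4 lay above the mean of each of the 21 brakes. Of the 45 genes of this list that were tested, 0 were called by edgeR's goodness of fit, against 0.533% of all genes. By the same test 1 gene had an unadjusted p under 0.05, against 4.1% of all genes. It was Prr5, an mTORC2 subunit gene, with only 33, 18 and 3 counts in replicates 2, 3 and 4.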

How the data were processed

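Total RNA-seq of T cells was deposited as raw counts per gene, 1 table for each of 3 libraries. Per the file headers, the authors counted read pairs with both ends mapped over GENCODE vM13 exons, reverse stranded, with featureCounts 1.4.6-p4 and no option for multi-mapping reads. The labels' protocols name a poly(A)+ library. Counts summed to 47432940, 59698913 and 28340521 in replicates 2, 3 and 4, and the members took 0.677 to 0.689% of them.

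Computed here were TPM from counts and merged exon length, with a pseudocount of 0.1 TPM on the log2 scale. Goodness of fit used edgeR 4.0.16 (R 4.3.3) with TMM factors and a dispersion trend, for genes averaging at least 10 counts. It was also run on counts simulated with its own fitted dispersions. The outcome of that run is not reported here, and no statement rests on it. A gene was detected at 1 TPM in every library. Contrasts were tested two-sided by exact permutation of signs, with Benjamini-Hochberg adjustment over 28 contrasts. Pooled ratios have 95% intervals from counts, and floors are 3 counts. The members, the gene lists, the classes and the contrasts were chosen with earlier results of these data known, and the paralogue families were set after their values were seen. All members were named. Other pathway genes were named by highest mean TPM or as paralogues of members. Prr5 was named by unadjusted p and Tbc1d7 as a gene of the TSC complex. Marker genes were named if they passed 1 TPM in every library. Some genes of these lists are not reported here and were left out of the counts and sums. Alternatives were other scalings, count minimums, a common dispersion, another pseudocount, CPM, other class definitions and leaving out each replicate. All 3 libraries form a single group, so no groups were compared.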

Additional observations from a re-analysis of the deposited data

How the results depend on the processing

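The difference of medians between activators and brakes, -0.14, turned to 0.61 with means, to 0.18 with the folliculin complex counted as brakes and to 0.32 with direct regulators only, the last chosen after seeing the data. It moved to -0.35 with CPM in place of TPM and to -0.37 without members under 1 TPM, and it ranged from -0.17 to -0.09 when a replicate was left out. With CPM, which is not corrected for exon length, 6 of 28 contrasts changed sign: Inpp5d over Inpp4b to -0.63, Sesn3 over Sesn1 to 1.70, Nprl2 over Depdc5 to -0.26, Rraga over Rragc to -0.83, Rptor over Akt1s1 to 1.54 and Rraga over Depdc5 to -0.73. Of the 28 contrasts, 17 moved by over 1.5 times with CPM. The cause of the changes of the class difference was not tested. The number of members with GTAAACA fell to 2 with bases before the start alone, a window chosen after seeing the data, against 4 in the whole window. The number of members called variable was 0 under each alternative, while calls over all genes were 72, against 312 where every gene shared 1 dispersion. Leaving out replicate 2 gave 35 such calls, replicate 3 gave 39 and replicate 4 gave 46. The adjusted p of Pik3ip1 ranged from 0.182 to 1.000. No paired comparison of groups was possible because the series has a single group. The contrasts between genes were paired within a library. With 3 libraries, a contrast cannot reach 0.05, and levels below 1 TPM rest on few counts.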
